A study of Homo sapiens with 6 samples.

Results

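The genes described are 10 genes of the actin cytoskeleton and of its regulator SRF (serum response factor), taken by their symbols from the counts of 55765 gene symbols. They are the actin genes ACTB, ACTG1 and ACTA2, the thin filament genes TPM1, CALD1 and TAGLN, the myosin light chain gene MYL9, the focal adhesion gene VCL, and SRF with its cofactor FHL2. RNA-seq libraries came from C4-2, a castration-resistant subline of the human prostate cancer line LNCaP. One group of 3 cultures received the solvent DMSO, and the other group of 3 received the synthetic androgen R1881 at 1 nM, a supraphysiological androgen level (SAL), both for 72 h in DMEM. The cells had been grown with serum, and all 6 libraries come from 1 cell line. The comparison asks how this androgen level changes the mRNA profile of castration-resistant cells.

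Actin monomers polymerize into filaments that carry tropomyosins and caldesmon, contract through myosin II and are anchored to the matrix at focal adhesions. SRF binds DNA at a sequence called the CArG box. Free actin monomers hold its coactivators, the myocardin-related factors MKL1 and MKL2, in the cytoplasm, so that polymerization releases them to switch on the genes of the filament system itself. A second family of partners, the ternary complex factors ELK1, ELK3 and ELK4, leads SRF to immediate-early genes such as FOS and EGR1. In the prostate, smooth muscle of the stroma is known for the highest levels of ACTA2, TAGLN and MYL9, whereas epithelial cells rely mainly on ACTB and ACTG1.

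CArG boxes were looked up in the 250 bases before the start of the canonical transcript of each gene, because they are the sequence by which SRF recognizes its targets. Sequences and positions are those of GRCh37, the assembly of hg19. A box was present in 6 of the 10 genes, against 1.12% of 19869 protein-coding genes with such a window. The 10 genes were chosen as genes of actin and SRF, so this difference is descriptive and no test. The boxes stand in capitals with the neighbouring bases, written 5′ to 3′ on the strand of the gene:
ACTB, minus strand, chr7:5570275-5570304: ccgaaagttgCCTTTTATGGctcgagcggc
ACTG1, minus strand, chr17:79479900-79479929: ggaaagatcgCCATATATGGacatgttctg
TAGLN, plus strand, chr11:117069920-117069949: gtgtctttccCCAAATATGGagcctgtgtg
MYL9, plus strand, chr20:35169778-35169807: tgggtcgaggCCAAATAAGGccggacggca
FHL2, minus strand, chr2:106015548-106015577: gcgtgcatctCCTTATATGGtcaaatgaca
SRF, plus strand, chr6:43138967-43138996: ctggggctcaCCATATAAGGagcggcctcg
SRF held another box directly before its annotated start (CCATAAAAGG). The boxes began 62, 94, 156, 134 and 59 bases before the start in ACTB, ACTG1, TAGLN, MYL9 and FHL2, and 30 and 10 bases before it in SRF.

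ACTA2, TPM1, CALD1 and VCL held no exact box in this window. ACTA2 held 2 boxes in which 1 of the 6 central bases was C or G. This form was present in 2 of the 10 genes and in 5.47% of the protein-coding windows. The boxes of ACTA2 are shown because ACTA2 had one of the largest changes among the 10 genes:
ACTA2, minus strand, chr10:90712632-90712661: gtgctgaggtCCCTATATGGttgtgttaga
ACTA2, minus strand, chr10:90712582-90712611: tgtctttgctCCTTGTTTGGgaagcaagtg
MYL9 held 1 box of this form beside its exact one (chr20:35169850-35169879, cattcttctgCCTTGTAAGGcccggccgcc). These matches describe letters of the reference, and binding of SRF was not measured.

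The libraries held between 6931042 and 9776990 counts on genes after rRNA genes were removed, and the 10 genes took from 0.124% of them in DMSO replicate 1 to 0.451% in SAL replicate 2. Levels are given as CPM, that is, counts scaled to a common library size with TMM factors. SAL was compared with DMSO by edgeR's quasi-likelihood test over 16835 genes, with the replicate number as a block, and genes with an adjusted p under 0.05 were called. The androgen target KLK3 rose in all 3 pairs of libraries with the same number, from 800 ± 347 to 1809 ± 630 CPM (SD, n = 3). Of 14 markers of smooth muscle and other stromal or blood cells, 4 had no count in any library (DES, COL1A2, PDGFRA and PTPRC). Their summed level was 7.93 to 17.2 CPM in DMSO and 9.48 to 18.2 CPM in SAL, and the most abundant, COL1A1, had 14 to 88 counts. This list includes the actin gene ACTG2, the one called higher of its 3 tested genes, and without ACTG2 the sum was 7.81 to 17.2 CPM in DMSO and 6.79 to 15.5 CPM in SAL. In bulk RNA, a change in the share of cells that express a gene and a change in its RNA per cell cannot be told apart.

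SAL up-regulated 5 of the 10 genes and down-regulated none. MYL9 and ACTA2, which are typical of smooth muscle, rose 10.4-fold and 6.12-fold from very low levels. TPM1, VCL and ACTB rose 1.65-fold, 1.51-fold and 1.28-fold. ACTG1, CALD1, TAGLN, SRF and FHL2 did not pass the test. Of all genes tested, 11.5% were called higher in SAL and 9.37% lower. The 10 genes were chosen with earlier results of these data known, so their comparison with all genes is descriptive. Scaled by library size alone, the split of all genes was 1373 higher and 2316 lower in place of 1931 and 1577, and 4 of the 10 genes were higher, without ACTB. Of the 6 genes with an exact CArG box ACTB and MYL9 were called, and of the 4 without one ACTA2, TPM1 and VCL. By DESeq2 with the block the same 5 genes were called higher and none lower, and none of the 10 was lower with an unadjusted p under 0.05 by either tool. The median log2 fold change (log2FC) of the 10 genes was 0.31, and that of all genes tested was -0.0011.

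**Figure D1:**
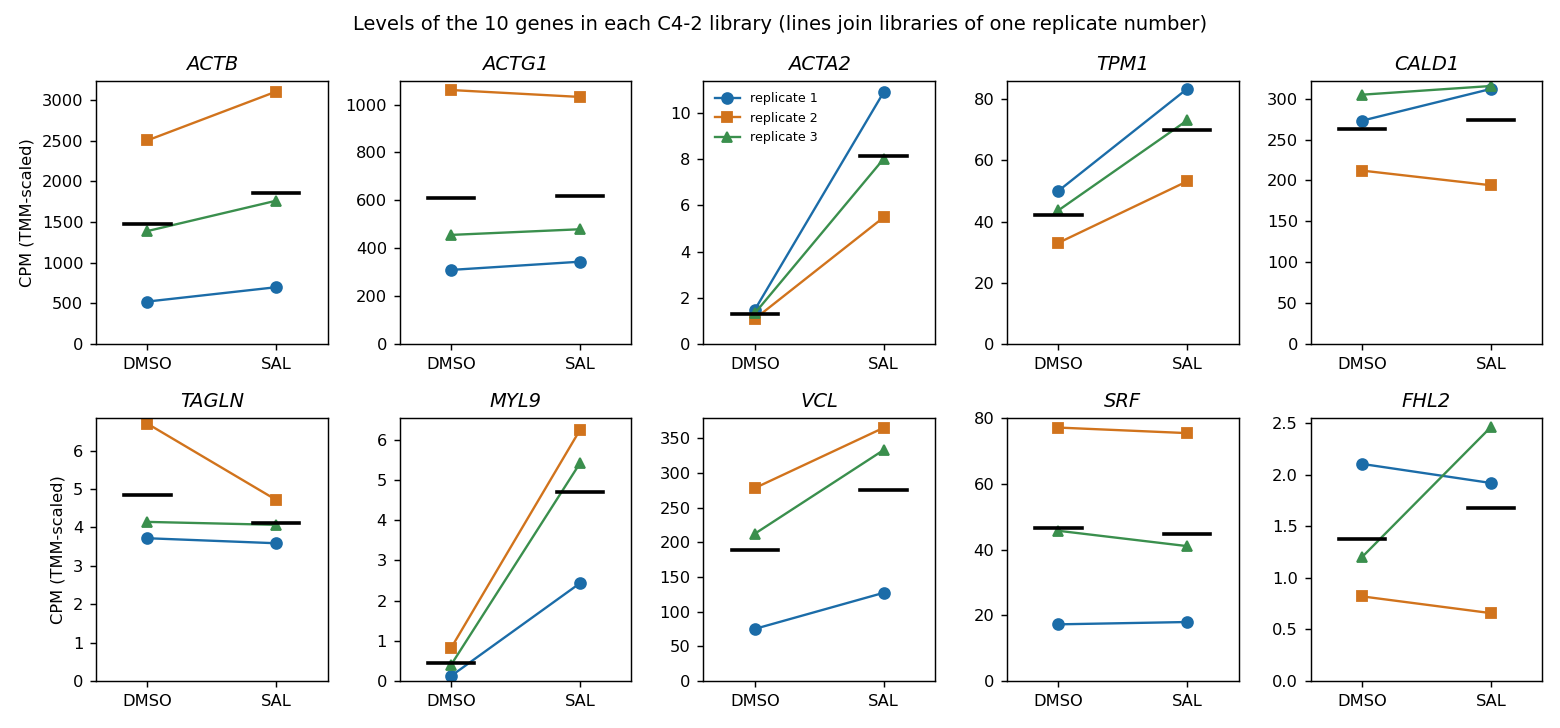
Level of each of the 10 genes in CPM (counts scaled to a common library size, linear axes from 0) in the 3 DMSO and 3 SAL libraries. Lines join libraries with the same replicate number, and black bars are group means. ACTA2 and TPM1 were higher in every SAL library than in every DMSO library, a pattern of 3.78% of all genes tested. ACTB and VCL rose within each pair while the groups overlapped. MYL9 passed the expression filter only through the SAL libraries, so the separation of its groups is no added result.

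ACTA2 encodes smooth muscle α-actin (minus strand, chr10:90694831-90751096). In DMSO replicates 1, 2 and 3 it was counted 12, 8 and 10 times, and in SAL replicates 1, 2 and 3 the numbers were 85, 50 and 65. In CPM the levels were 1.49, 1.09 and 1.34 in DMSO and 10.9, 5.48 and 8.01 in SAL. Each SAL library was thus above each DMSO library, which was the case for 3.78% of all genes tested and for 3 of the 10 genes. For MYL9 among these 3, the separation followed from the expression filter, as given below. The fitted log2FC of ACTA2 was 2.61 (SE 0.28, adjusted p = 6.63e-06, edgeR), with 2.68, 2.09 and 2.38 in the pairs. The ratio of the summed counts was 6.09 (95% interval 4.13 to 9.26, counting error only). An exact two-sided permutation test over the 6 libraries gave p = 0.1, the smallest that 3 against 3 allow. ACTA2-AS1 and FAS are transcribed across exons of ACTA2 in the opposite direction, and the strands were counted together. ACTA2-AS1 had 0 to 6 counts per library, and FAS had between 29 and 59 counts with DMSO and between 18 and 39 with SAL. Reads lying wholly in exon bases shared by 2 annotated genes were assigned to neither, so these counts do not measure the shared bases. The shared part was 29.1% (ACTA2-AS1) and 6.75% (FAS) of the ACTA2 exon bases. A noncoding gene on the same strand overlaps 7.13%, had no counts under its current name, and its part was not tested.

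MYL9 encodes a regulatory light chain of smooth muscle and non-muscle myosin II (plus strand, chr20:35169900-35179850). It had 1, 6 and 3 counts in the DMSO libraries and 19, 57 and 44 in the SAL libraries. The levels were 0.124, 0.820 and 0.401 CPM in DMSO and 2.43, 6.25 and 5.42 CPM in SAL. Again every SAL library lay above every DMSO library. It was higher in SAL by 3.38 on the log2 scale (SE 0.41, adjusted p = 2.43e-05, edgeR), and the pairs changed by 2.84, 2.60 and 3.12. The size is imprecise, since the ratio of the summed counts, 120 against 10, was 11.0 with a 95% interval of 5.76 to 23.4 for counting error. MYL9 reached the expression filter of 1.23 CPM in no DMSO library and in all 3 SAL libraries, so it passed the filter only through the SAL group. A gene that passes in this way has groups that do not overlap, so the separation of MYL9 is no added result. ACTA2 reached the filter in 2 DMSO libraries.

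**Figure D2:**
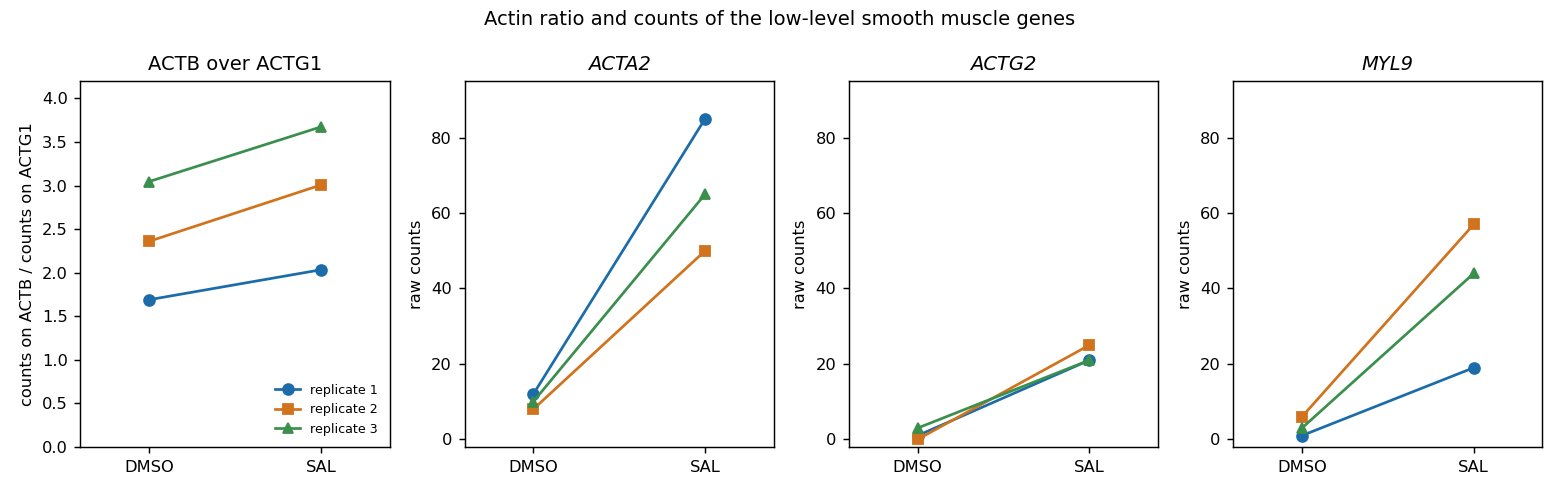
Ratio of counts on ACTB to counts on ACTG1 (left) and raw counts of ACTA2, ACTG2 and MYL9 in the DMSO and SAL libraries, with lines joining libraries of the same replicate number. The ACTB to ACTG1 ratio rose in each pair. The 3 low-level genes had at most 12 counts in any DMSO library and at least 19 in each SAL library. MYL9 and ACTG2 passed the expression filter only through the SAL libraries, so the separation of their groups is no added result.

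TPM1 encodes a tropomyosin that lies along the actin filament (plus strand, chr15:63334819-63364114). Its levels were 50.1, 33.1 and 43.7 CPM in DMSO replicates 1, 2 and 3 and 83.4, 53.2 and 73.1 CPM in SAL. The lowest SAL library was above the highest DMSO library, although only by the step from 50.1 to 53.2 CPM. It was higher in SAL by 0.72 on the log2 scale (SE 0.10, adjusted p = 8.63e-05, edgeR), and 0.73, 0.68 and 0.74 in the pairs made it the most even change of the 10 genes. Its level per pair differed by more than its change did, as the SD between replicate numbers was 0.32 on the log2 scale and the SD between the changes of the pairs was 0.03. On the other strand, the noncoding gene TPM1-AS overlaps 2645 of the TPM1 exon bases, and a further noncoding gene overlaps 691. Neither had counts under its current name. Since the strands were counted together, the TPM1 counts may include reads of these genes, and their part was not tested.

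VCL encodes vinculin, which links actin filaments to integrins and cadherins (plus strand, chr10:75754951-75881121). Its levels were 75.1, 278 and 212 CPM in the DMSO libraries and 127, 365 and 333 CPM in the SAL libraries. Replicate 1 was low in both groups, so that the groups overlapped, yet the SAL library was higher in each pair. The fitted log2FC was 0.60 (SE 0.10, adjusted p = 0.000436, edgeR), with 0.76, 0.39 and 0.65 in the pairs. AP3M1 has exons that overlap 11.1% of the VCL exon bases on the other strand. It had between 545 and 811 counts in the DMSO group and between 587 and 844 in the SAL group. Reads wholly within the shared bases were likewise assigned to neither gene. Without replicate 3 VCL was not called, with an adjusted p of 0.0633 at a log2FC of 0.57 (SE 0.17, edgeR). Leaving out this replicate number also took the genes called higher among all genes tested from 1931 to 750.

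ACTB encodes the cytoplasmic β-actin (minus strand, chr7:5566040-5603533), which also served as a reference gene in RT-qPCR assays of the study. Its levels were 524, 2502 and 1389 CPM in DMSO and 700, 3102 and 1762 CPM in SAL. Replicate 2 was several-fold above replicate 1 in both groups, and the SAL library was higher within each pair. It was higher in SAL by 0.36 on the log2 scale (SE 0.09, adjusted p = 0.0126, edgeR), or 1.28-fold with a 95% interval of 1.12 to 1.47. The pairs changed by 0.42, 0.31 and 0.34. The change was small beside the spread between replicate numbers, which reached 2.20 on the log2 scale. Without replicate 3 the adjusted p was 0.323 at a log2FC of 0.36. With library size alone in place of TMM, which moved the median of all genes to -0.10, ACTB had a log2FC of 0.26 (adjusted p = 0.129).

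ACTB has processed pseudogenes whose reads cannot always be told from its own. The 10 pseudogene symbols of the ACTBP series took 585 to 4827 counts per library, from 13.1% to 19.9% of the ACTB counts, and nearly all of these lay on ACTBP2 (580 to 4807 counts). The 9 pseudogene symbols of ACTG1 took at most 27 counts. With the pseudogene counts added, ACTB had a log2FC of 0.34 (adjusted p = 0.0177, edgeR) and ACTG1 of 0.06.

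ACTG1 encodes the other cytoplasmic actin, γ-actin (minus strand, chr17:79476439-79490873). Its levels were 310, 1061 and 456 CPM in DMSO and 344, 1032 and 480 CPM in SAL. The order of the libraries followed the replicate number, and the pairs changed by 0.15, -0.04 and 0.07. Its log2FC of 0.06 was not past the threshold (adjusted p = 0.704, edgeR), and its 95% interval ran from -0.14 to 0.26. A rise of more than 1.19-fold thus lay outside the interval. The balance of both cytoplasmic actins, which needs no scaling between libraries, moved toward ACTB. The ratio of counts on ACTB to counts on ACTG1 was 1.69, 2.36 and 3.05 in DMSO and 2.03, 3.01 and 3.67 in SAL. It was 1.20-fold, 1.27-fold and 1.21-fold higher in SAL in the 3 pairs, and the 95% intervals for counting error of the pairs began at 1.12, 1.23 and 1.14. The mean over the pairs was 0.30 ± 0.05 on the log2 scale (SD, n = 3), and an exact two-sided sign-flip test gave p = 0.25, the smallest that 3 pairs allow. ACTA2 was from 0.0307% to 0.178% of the counts on these 3 actins in DMSO, and from 0.132% to 1.03% in SAL.

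**Figure D3:**
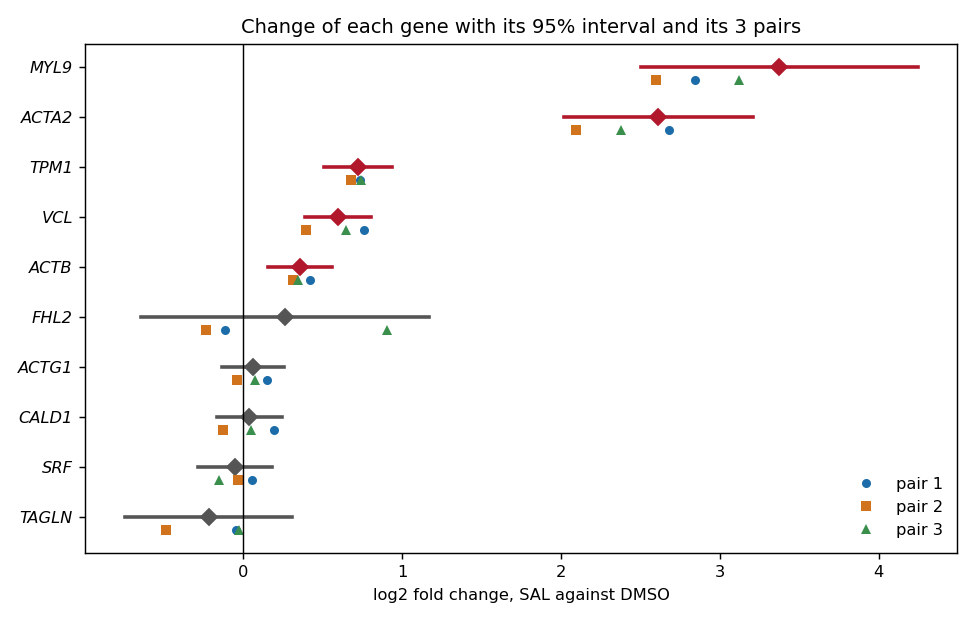
Log2 fold change of each of the 10 genes (diamonds) with its 95% interval (bars) from edgeR with the replicate block, and the change in each pair of same-numbered libraries (small symbols). Genes called higher in SAL are red and genes not called are grey. The intervals of MYL9, ACTA2, TPM1, VCL and ACTB lie above 0, and those of the other 5 genes include 0.

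CALD1 encodes caldesmon, which binds actin and tropomyosin and restrains myosin (plus strand, chr7:134429003-134655480). Its levels of 273, 212 and 305 CPM in DMSO and 312, 194 and 315 CPM in SAL overlapped. Its log2FC was 0.04 (95% interval -0.16 to 0.24, adjusted p = 0.823, edgeR), and its sign turned with library size alone in place of TMM (-0.06). Unlike ACTB and VCL, CALD1 was lowest in replicate 2 in both groups.

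TAGLN encodes transgelin, an actin-binding protein of smooth muscle (plus strand, chr11:117070086-117078180). It had 30, 49 and 31 counts in DMSO and 28, 43 and 33 counts in SAL, or 3.72, 6.70 and 4.14 CPM and 3.59, 4.71 and 4.07 CPM. It was the only one of the 10 genes that was lower in SAL in all 3 pairs, as were 25.3% of all genes tested, while 5 of the 10 were higher in all 3 pairs, as were 25.9% of all genes. The log2FC of -0.22 was not past the threshold (adjusted p = 0.593, edgeR), and its 95% interval of -0.74 to 0.31 lay wholly below those of ACTA2 and MYL9. PCSK7 on the other strand overlaps 34.1% of the TAGLN exon bases, and reads wholly within the shared bases were assigned to neither gene. PCSK7 had between 315 and 462 counts with DMSO and between 283 and 499 with SAL. A further annotated gene on the same strand overlaps 38.1% of the TAGLN exon bases and had no counts under its current name. The TAGLN counts may include its reads, and their part was not tested.

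SRF itself had 17.2, 77.1 and 45.7 CPM in DMSO and 17.9, 75.4 and 41.0 CPM in SAL (plus strand, chr6:43139007-43149244). Each pair of libraries held nearly the same level, and the differences lay between replicate numbers. Its log2FC was -0.05 with a 95% interval of -0.28 to 0.18 (adjusted p = 0.793, edgeR), which leaves out a rise of more than 1.13-fold. FHL2, a LIM-domain cofactor of SRF (minus strand, chr2:105974169-106054970), had only 6 to 20 counts per library. Its levels were 2.11, 0.820 and 1.20 CPM in DMSO and 1.92, 0.658 and 2.46 CPM in SAL. The pairs disagreed in direction, with -0.12, -0.24 and 0.90, and the log2FC of 0.26 had a 95% interval of -0.65 to 1.17 (adjusted p = 0.727, edgeR). Changes of FHL2 within this interval were not resolved.

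Per kilobase of the canonical transcript, ACTB stood first in DMSO with 812 ± 547 CPM per kb, before ACTG1 with 317 ± 207 (SD, n = 3). CALD1, TPM1 and VCL followed with 52.5 ± 9.40, 34.7 ± 7.04 and 34.3 ± 18.9 CPM per kb, and SRF had 11.0 ± 7.08. The lowest levels were those of TAGLN (1.28 ± 0.426), ACTA2 (0.968 ± 0.147), FHL2 (0.870 ± 0.417) and MYL9 (0.161 ± 0.126 CPM per kb). ACTB was above ACTG1 in every library, whereas TPM1 and VCL, and likewise ACTA2 and FHL2, differed by less than their spread. In SAL, ACTA2 reached 6.02 ± 2.00 CPM per kb and was above TAGLN in every library, and MYL9 reached 1.69 ± 0.721. These values depend on the transcript chosen, which matters for genes with several isoforms such as TPM1 and CALD1. They also miss reads lying wholly in exon bases shared with another counted gene. These were 34.1% of the exon bases of TAGLN (PCSK7) and 29.1% of those of ACTA2 (ACTA2-AS1). The order of TAGLN and ACTA2 is therefore uncertain.

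The levels of ACTB, ACTG1, SRF and VCL varied with the replicate number, lowest in replicate 1 and highest in replicate 2 of both groups. Between the means of the replicate numbers the range was 2.20, 1.68, 2.1 and 1.70 on the log2 scale for these genes in turn, and 0.62 and 0.61 for TPM1 and CALD1. The numbers also differed in composition. The rRNA share of the gene counts was 27.7%, 18.6% and 11.9% in DMSO replicates 1, 2 and 3, and 27.8%, 22.0% and 17.4% in SAL, so it was higher in SAL in each pair. The share of all read tallies that matched no annotated exon was 37.3%, 30.1% and 48.3% in DMSO and 38.6%, 24.0% and 43.3% in SAL. The part of these differences in the changes of the 10 genes was not tested. The calls rested on the pairing. Without the replicate block, none of the 10 genes was called at nearly equal log2FCs (2.62 for ACTA2 with adjusted p = 0.0987, and 3.37 for MYL9 with adjusted p = 0.170). Without the block, 2 of the 10 genes had an unadjusted p under 0.05, as had 654 of all 16835 genes tested.

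The wider filament system was described with 99 other genes in 7 lists of SRF cofactors, actins, thin filament proteins, myosin II and its regulators, focal adhesions, filament turnover and SRF target genes of other kinds. Of the 83 tested, 28 were called higher in SAL (33.7%) and 7 lower (8.43%), against 11.5% and 9.37% of all genes. The median log2FC of the 83 was 0.20. All lists were chosen with earlier results of these data known, so the comparison with all genes is descriptive and no test. By DESeq2 with the block, 23 of the 83 were higher and 3 lower, against 7.66% and 5.64% of all genes by that tool. Without replicate 3, 11 of the 83 were higher and 3 lower, against 4.41% and 2.84% of all genes in that setting.

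**Figure D4:**
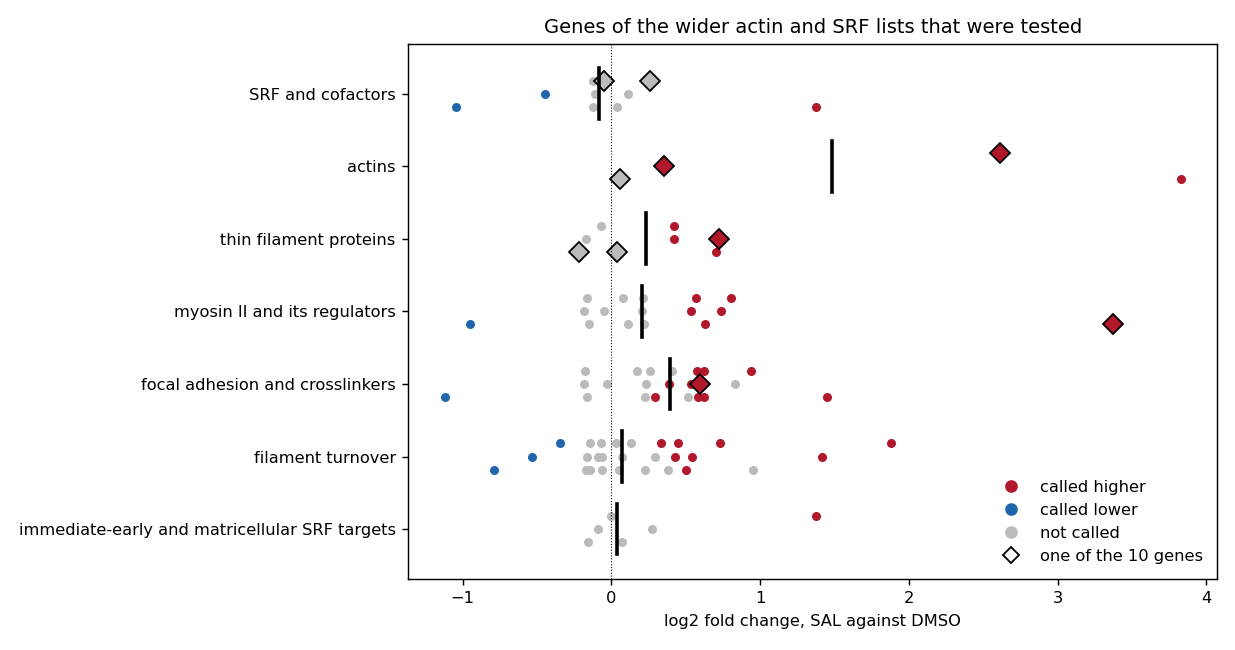
Log2 fold change of the tested genes of the 7 lists, SAL against DMSO, by edgeR with the replicate block. Diamonds are the 10 genes, dots the other genes, red and blue mark genes called higher and lower, and black bars are list medians with the 10 genes included. The changes past 2 belong to ACTA2, MYL9 and ACTG2.

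ACTG2, the enteric smooth muscle actin, was the only other actin tested and moved with ACTA2. It had 1, 0 and 3 counts in DMSO and 21, 25 and 21 in SAL, so that the groups did not overlap. The ratio of the summed counts was 15.3 (95% interval 5.70 to 57.8, counting error only), with an adjusted p of 0.000347 (edgeR). Like MYL9, it reached the filter only through the SAL libraries, so the filter itself set its groups apart. The striated muscle actins were near or at 0, with no count of ACTC1 in any library and at most 2 counts of ACTA1. The coding sequences of the muscle actins are close to one another, and reads that matched several genes were not counted, so the levels of ACTA2 and ACTG2 are uncertain. Of the other smooth muscle genes, SMTN, which encodes smoothelin, was called higher with a log2FC of 0.42 (adjusted p = 0.0191, edgeR), and CNN1, LMOD1 and DES were too low to be tested. MYH11, the smooth muscle myosin heavy chain, had a log2FC of -0.19 (adjusted p = 0.658), and CNN1 had 1 count in all libraries together. LMOD1 had at most 7 counts, and DES had none.

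MYL12A and MYL6, which encode light chains of myosin II, rose by 0.80 on the log2 scale (adjusted p = 2.45e-05) and by 0.74 (adjusted p = 9.57e-05). MYLK, the kinase that activates the regulatory light chains, fell from 67.9 ± 21.1 to 34.4 ± 6.38 CPM (SD, n = 3), with a log2FC of -0.95 (adjusted p = 1.79e-05). All SAL libraries were below all DMSO libraries for MYLK, a pattern of 3.73% of all genes. Of the 5 other thin filament genes tested, 3 were called higher, against 11.5% of all genes. Among them were the calponin gene CNN2 and the tropomyosin gene TPM4 (log2FC 0.70 with adjusted p = 0.00362, and 0.42 with adjusted p = 0.0106).

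Of the 21 other focal adhesion and crosslinker genes tested, 9 were called higher (42.9%) and 1 lower (4.76%). Of all genes, 11.5% were called higher and 9.37% lower. PARVA, which binds integrin-linked kinase and actin, rose from 14.8 ± 6.90 to 39.1 ± 8.49 CPM (SD, n = 3), or by 1.45 on the log2 scale (adjusted p = 3.12e-05). The PARVA groups did not overlap, as for 3.78% of all genes in that direction. PDLIM5, a PDZ and LIM domain protein of the cytoskeleton, rose by 0.62 (adjusted p = 0.000568). TNS1, a tensin that tethers filaments to integrins, fell by 1.12 (adjusted p = 0.00188). Of the 27 genes of filament turnover, 8 were called higher (29.6%) and 3 lower (11.1%), and their median log2FC was 0.08. The capping protein gene CAPZB rose by 1.42 (adjusted p = 5.03e-08) and the severing protein gene GSN by 1.88 (adjusted p = 5.42e-05). ARPC3, a subunit of the Arp2/3 complex, rose by 0.73 (adjusted p = 0.000343). The formin genes DIAPH3 and DIAPH2 fell by 0.79 (adjusted p = 6.48e-05) and by 0.35 (adjusted p = 0.0237), and the monomer-binding thymosin gene TMSB4X by 0.54 (adjusted p = 0.0476, all from edgeR).

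Among the partners of SRF, 8 other genes were tested, of which 1 was called higher (12.5%) and 2 lower (25%). Of all genes, 11.5% were called higher and 9.37% lower. The ternary complex factor gene ELK4 rose from 280 ± 105 to 714 ± 229 CPM (SD, n = 3), or by 1.38 on the log2 scale (adjusted p = 5.14e-07, edgeR). The ELK4 groups did not overlap, as for 3.78% of all genes in that direction. SCAI, a repressor of the coactivator MKL1, had a log2FC of -0.45 (adjusted p = 0.0240), and the LIM protein gene CSRP2 of -1.05 (adjusted p = 0.0484). MKL1 had a log2FC of 0.11 (adjusted p = 0.636) and MKL2 one of -0.12 (adjusted p = 0.450), and MYOCD had no count. Of the 14 immediate-early and matricellular SRF targets, 6 reached the filter and 1 of these was called higher (16.7%). This was NR4A1, with a log2FC of 1.38 (adjusted p = 0.000152). FOS and EGR1 had at most 6 counts per library.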

How the data were processed

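The authors isolated total RNA from C4-2 cells, sequenced stranded total RNA libraries and trimmed the reads. Of each read pair, only the first was aligned to hg19 (TopHat2 2.1.0), and they counted reads on exons per gene symbol with HTSeq 0.11.2 and gencode v19, without regard to strand. The deposited values are these raw counts, not normalized. Groups and replicate numbers come from the labels, and the paper describes the experiment as performed independently for each condition.

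Here, 523 rRNA symbols were removed as in the study, genes were filtered with filterByExpr (16835 of 55765 symbols left) and counts were normalized with TMM. The quasi-likelihood test of edgeR 4.0.16 (R 4.3.3) was run with the replicate number as a block, since the study used a paired test, and with Benjamini-Hochberg adjustment over all genes tested. The deviations of same-numbered libraries from their group means correlated at 0.89, 0.86 and 0.74. The SE of a log2FC was derived from the F statistic (log2FC over the root of F, without sign), and the change of a pair from log2 CPM with 2 as prior count. Data were also simulated over 16359 genes with the real library sizes. Of the genes changed by 1 on the log2 scale 76.3% were called, and of those changed by 2, 99.0%. Unchanged genes made up 4.97% of the calls. Only 97 and 99 tested genes were changed by these steps, and dispersions followed the fitted trend. The real data had many more calls, so these rates need not hold for them.

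The 10 genes and all lists were chosen with earlier results of these data known. The genes named are the 10 genes, the 3 called genes with the smallest adjusted p in each direction per list, overlapping genes, COL1A1 and KLK3. MYH11, SMTN, CNN1, LMOD1, DES, ACTC1, ACTA1, MKL1, MKL2, MYOCD, FOS and EGR1 were named in addition, after their values were seen. One stromal marker symbol was not analysed here, and some items of the lists are not reported here. Positions, canonical transcripts and overlaps come from GENCODE v44 lifted to GRCh37, which is newer than the annotation of the counts. The alternatives were DESeq2 1.42.0, other scalings and filters, no block, rRNA genes kept, mitochondrial genes removed, pseudogene counts added and each replicate number left out. Intervals on counts cover counting error only, and the 6 libraries limit the precision of every test.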

Additional observations from a re-analysis of the deposited data

How the results depend on the processing

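Without the replicate block, 18 genes were called higher and 3 lower, with 0 of the 10 genes and 0 of the wider lists in either direction, although same-numbered libraries deviated together and the fold changes of the 5 called genes kept their sign. DESeq2 with the block called 1290 genes higher and 950 lower, and 3 of the wider lists lower. Requiring at least 10 counts in every library left 3 of the 10 genes called, since ACTA2, MYL9 and FHL2 were then not tested. Leaving out each replicate number gave 750 to 2443 genes higher and 483 to 1955 lower, 3 to 5 of the 10 genes higher, 0 lower, and 11 to 35 higher and 3 to 7 lower in the wider lists, the lowest of each without replicate 3 (3 lower in the wider lists also without replicate 2). Library size alone turned the split of calls from 55.0% higher to 37.2% and left 4 of the 10 genes called, without ACTB. Signs turned only for genes that were not called. CALD1 had a log2FC of -0.0028 with upper-quartile scaling, -0.0607 with library size alone and -0.0374 to 0.103 without 1 replicate number. ACTG1 had -0.0393 with library size alone, and SRF had -0.0873 to 0.0062 without 1 replicate number. FHL2 had 0.39 without replicate 2 and -0.19 without replicate 3, and it was not tested without replicate 1. The calls of ACTA2, TPM1 and MYL9 were lost only without the block or where they were not tested. Depth limits the precision for FHL2, ACTA2, MYL9 and TAGLN, which had under 100 counts per library.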
